A study of Mus musculus with 6 samples.

Results

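The MYC and MAX network was taken as 9 genes, namely Myc, Mycn, Mycl, Max, Mga, Mnt, Mxd1, Mxd3 and Mxd4, found by exact gene symbol in the annotation of the array platform. Each gene had 1 feature, so the network made up 9 of the 34760 features of the deposited table and 9 of the 16912 features that passed the filter on low values. No member was lost to the filter. The members were listed by gene name, but earlier results of these data were known when they were chosen.

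MYC proteins are transcription factors that bind the E-box sequence CACGTG only as dimers with MAX, through a shared basic helix-loop-helix leucine zipper region, and they raise genes of growth, ribosome production and metabolism. MNT and the MXD proteins dimerise with MAX in the place of MYC, bind the same sequence and recruit the SIN3 corepressor, so the balance of activators and repressors around MAX sets the output. In mouse embryonic stem cells Myc and Mycn sustain growth and self-renewal, Myc is known as a target of STAT3 and of ERK signalling, its messenger RNA is short-lived, and MGA with MAX keeps germ cell genes silent as part of the Polycomb complex PRC1.6.

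Transcript levels were measured on 6 single-colour arrays, 2 in each of 3 groups. All samples were mouse embryonic stem cells of strain C57Bl/6, grown with serum, that stably carried GRgp-Y118F, a chimeric receptor known as a fusion of the ligand-binding domain of the receptor for GCSF, granulocyte colony-stimulating factor, with the signalling part of gp130, in which the tyrosine that couples to SHP2 and ERK is replaced. The first group, labelled LIF/PD, received leukaemia inhibitory factor (LIF) with 1 uM PD0325901, which blocks MEK, the kinase upstream of ERK. The second, labelled GCSF, received GCSF. The third was an untreated control. Both stimuli lasted 1 h after 6 h without serum. The sources used here do not say whether serum was also withdrawn from the controls, so the stimulus and any effect of serum withdrawal cannot be told apart in a comparison with control. The labels say neither whether the receptor line is 1 clone nor whether the 2 arrays of a group stand for separate cultures. The p-values therefore reflect just the variation among these samples, which could be technical.

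Values are log2 intensities as deposited. A difference of 1 on this scale is 2-fold, a level can be set only against the same gene in other arrays, and errors of differences are standard errors from the limma fit to all 6 arrays (SE, n = 2 arrays per group). Calls were made at an adjusted p under 0.05 (limma, two-sided, Benjamini-Hochberg over all 16912 features). Arrays correlated at 0.997 to 0.998 within groups and at 0.995 to 0.998 between groups. Of 10 pluripotent stem cell markers all passed the filter, and their mean log2 level lay between 11.56 and 11.57 in the LIF/PD arrays, 11.56 and 11.58 in the GCSF arrays and 11.54 and 11.56 in the control arrays. Of 10 feeder fibroblast markers 9 were on the array and 8 passed. The mean of all 9 was 9.46 to 9.48 in the LIF/PD, 9.49 to 9.50 in the GCSF and 9.47 to 9.51 in the control arrays. Markers of primitive endoderm (5 of 8 passed), trophoblast (7 of 8), and mesoderm and neuroectoderm (6 of 7 on the array) had means of 6.95 to 8.26 in all arrays. These means include the features below the filter. The markers that passed for GCSF against control were all higher in GCSF arrays. They were the pluripotency genes Tdgf1 (0.30 ± 0.03) and Fgf4 (0.29 ± 0.03) and the feeder marker Col3a1, a collagen gene (0.29 ± 0.05). Tfap2c of the trophoblast list (0.74 ± 0.06) and Pax6 of the mesoderm and neuroectoderm list (0.54 ± 0.07) passed too. In that order of lists 18.2%, 12.5%, 14.3% and 16.7% of features were called, against 1.17% of all tested features. The list medians were 0.03, -0.01, 0.01 and -0.04, and the lowest differences were -0.28, -0.10, -0.23 and -0.18. The markers that passed for LIF/PD against GCSF were the pluripotency genes Utf1 (0.23 ± 0.03) and Tdgf1 (-0.17 ± 0.03). Their part in the results below was not tested.

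Dusp6 and Spry4, transcripts that depend on ERK, went against the labels of the 2 stimuli. Dusp6, the gene of an ERK phosphatase, had log2 levels of 10.51 and 10.54 in the arrays labelled LIF/PD, 8.93 and 8.94 in those labelled GCSF and 10.47 and 10.52 in the controls. Spry4, the gene of an inhibitor of the ERK pathway, had 10.12 and 9.98 in LIF/PD, 8.12 and 8.22 in GCSF and 9.97 and 10.04 in control arrays. Low levels of such transcripts would be looked for with the MEK inhibitor, and for these 2 genes they were found in the arrays labelled GCSF. The ERK-dependent gene Egr1 was low in the same arrays, with 8.34 and 8.17 in LIF/PD, 6.98 and 6.90 in GCSF and 8.49 and 8.38 in control arrays. The ERK-dependent genes Etv4 and Etv5 moved less. By 1 feature Etv5 fell by 0.25 ± 0.04 in GCSF against control and passed. By the same feature Etv5 was 0.24 ± 0.04 higher in LIF/PD than in GCSF arrays and passed (adjusted p = 0.0433 by limma). Its other feature, with means of 11.85 in LIF/PD, 11.79 in GCSF and 11.82 in control arrays, did not pass. Neither did Etv4, with means of 8.92, 8.85 and 8.95 in the same order. The STAT3 feedback gene Socs3, by its brighter feature, was higher than control under both labels, at 10.42 and 10.32 in LIF/PD and 10.79 and 10.98 in GCSF against 7.77 and 7.73 in control arrays. Groups are therefore named below as labelled, and each direction holds for the arrays that carry the label.

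Of the network, Myc and Mycn moved in the arrays labelled GCSF, in opposite directions, and no other member passed in any comparison. Against control 1 member rose and 1 fell in the GCSF arrays, where 1.17% of all tested features were called (0.804% higher and 0.367% lower), and 2 of 9 had an unadjusted p under 0.05, against 12.1% of all features. In the LIF/PD arrays 0 of 9 passed by limma, where 0.065% of all features were called (0.0591% higher and 0.00591% lower), and 1 had an unadjusted p under 0.05, against 6.59% of all features. Between the stimuli, LIF/PD over GCSF, 1 member was higher and 0 were lower, where 0.846% of all features were called (0.402% higher and 0.443% lower), and 3 had an unadjusted p under 0.05, against 11.8% of all features. The median difference of the 9 members was 0.03 for GCSF minus control, -0.01 for LIF/PD minus control and -0.04 for LIF/PD minus GCSF, and that of all tested features was 0.01, 0.01 and 0.00 in the same comparisons.

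**Figure D1:**
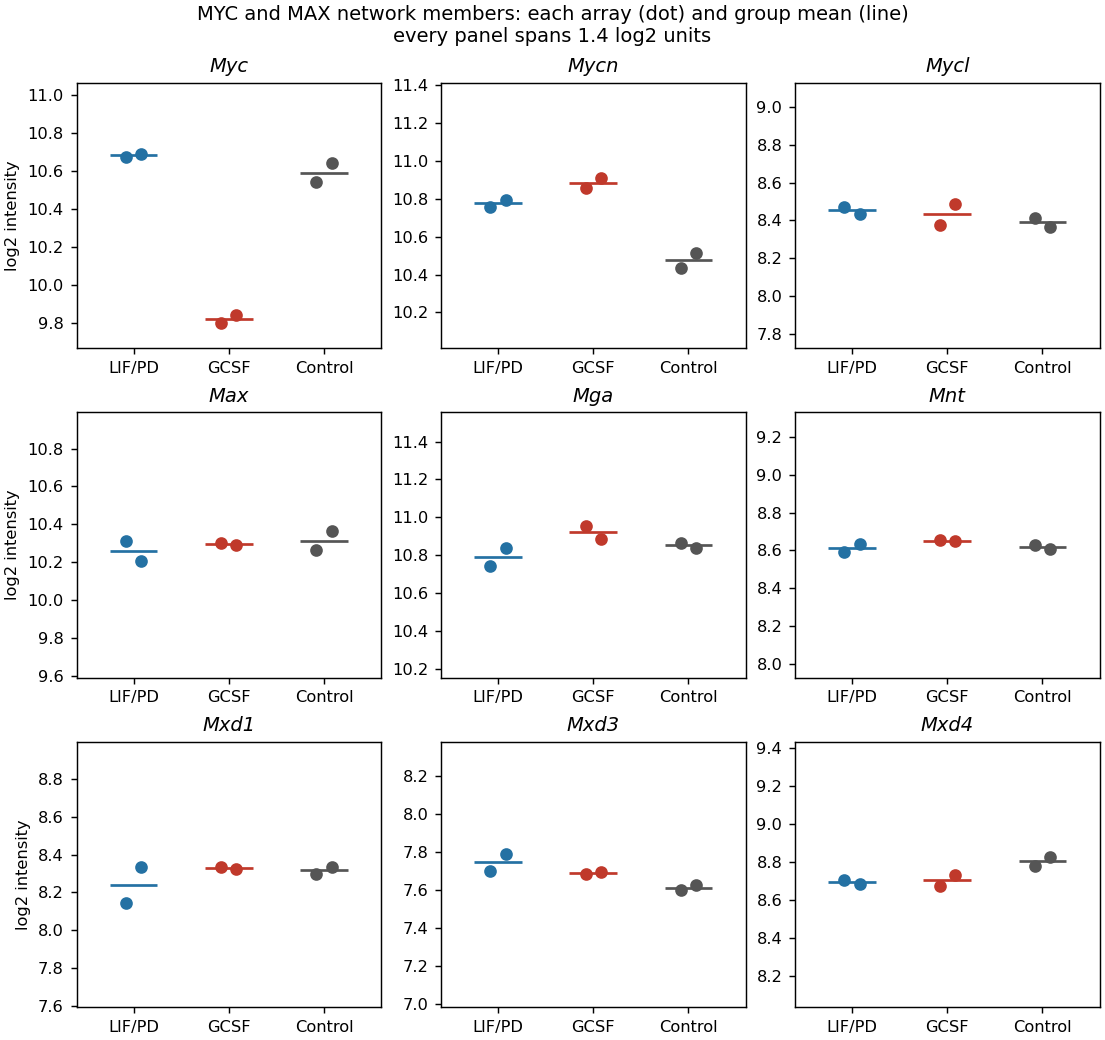
Log2 intensity of the 9 members in each of the 6 arrays (dots) with group means (lines), for LIF/PD, GCSF and control, each panel spanning the same range of log2 units around the gene's mean. Myc stands 0.86 lower in GCSF than in LIF/PD arrays, Mycn lies above control in both stimulated groups, and the other 7 members differ between groups by at most 0.13 in size.

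Myc, the gene of the broadly acting MYC protein, had log2 levels of 10.68 and 10.69 in the arrays labelled LIF/PD, 9.80 and 9.84 in those labelled GCSF and 10.54 and 10.64 in control arrays. The GCSF arrays were low, and neither of them overlapped with any other array. Myc fell by 0.77 ± 0.04 against control, that is 1.71-fold lower (95% interval -0.87 to -0.67, adjusted p = 9.43e-05 by limma). It was 1.82-fold higher in LIF/PD than in GCSF arrays (log2 difference 0.86 ± 0.04, adjusted p = 7.32e-05 by limma), which is the test of the difference between the stimuli. In the LIF/PD arrays it lay 0.09 ± 0.04 above control and did not pass (95% interval -0.01 to 0.19, adjusted p = 0.778 by limma). In order of level Myc thus stood at 10.68 ± 0.01 in LIF/PD, 10.59 ± 0.07 in control and 9.82 ± 0.03 in GCSF arrays (SD, n = 2 each), where LIF/PD and control did not differ beyond the test and GCSF differed from both. In bulk samples, fewer cells that carry a transcript and less of it per cell cannot be told apart. Both Myc calls held under each of the 19 alternative settings tried, with adjusted p up to 0.0026 against control and 0.00759 between the stimuli.

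The fall of Myc came in the same arrays as that of the ERK-dependent transcripts Dusp6, Spry4 and Egr1. Against control in the GCSF arrays, Dusp6 fell by 1.56 ± 0.04, Spry4 fell by 1.83 ± 0.06 and Egr1, an immediate early transcription factor gene, fell by 1.49 ± 0.08 on the log2 scale. In the LIF/PD arrays the same genes differed from control by 0.03 ± 0.04, 0.05 ± 0.06 and -0.18 ± 0.08 and did not pass. The STAT3 feedback genes Klf4 and Stat3 rose in the same GCSF arrays, by 0.92 ± 0.06 and 0.61 ± 0.05 against control, and passed. In LIF/PD arrays Klf4 lay 0.30 ± 0.06 and Stat3 0.24 ± 0.05 above control, and both LIF/PD arrays lay above both controls. Neither difference passed over all features (unadjusted p = 0.00124 and 0.000671, adjusted p = 0.374 and 0.258 by limma). Klf4, Stat3 and Socs3, by its brighter feature, were lower in LIF/PD than in GCSF arrays and passed (-0.62 ± 0.06, -0.37 ± 0.05 and -0.51 ± 0.07). The part of the ERK-dependent or the STAT3 feedback genes in the level of Myc was not tested. Pvt1, the noncoding transcript next to Myc, did not pass: its tested feature had 8.36 and 8.49 in LIF/PD, 8.49 and 8.30 in GCSF and 8.40 and 8.45 in control arrays, and its other feature lay below the filter.

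By the distance between values centred on each gene's mean over the 6 arrays, the genes most like Myc were Ccl7 (distance 0.10 log2), Mir674 (0.20), Id3 (0.22), Epha2 (0.27) and Dusp4 (0.31). Ccl7 encodes a chemokine, Mir674 a microRNA, Id3 an inhibitor of basic helix-loop-helix factors, Epha2 an ephrin receptor and Dusp4 a MAP kinase phosphatase. The nearest, Ccl7, had 10.62 and 10.61 in LIF/PD, 9.80 and 9.83 in GCSF and 10.50 and 10.51 in control arrays, a fall of 0.69 ± 0.04 in GCSF against control. All 5 were lower in GCSF than in control arrays, by log2 differences of -0.81 to -0.55, which the choice by likeness to Myc on the same arrays fixes, so these values are a description.

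**Figure D2:**
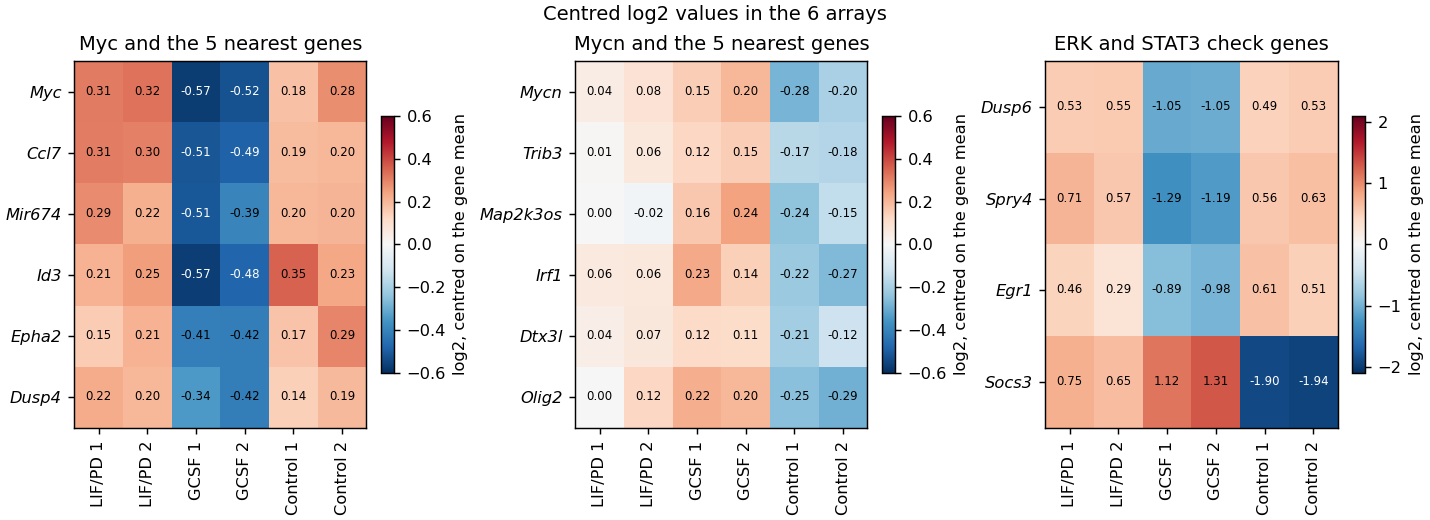
Log2 values (colour and number in each cell) centred on each gene's mean over the 6 arrays, for Myc and the 5 genes of nearest pattern, Mycn and its 5 nearest, and the ERK-dependent and STAT3 check genes, with LIF/PD, GCSF and control arrays from left to right. Myc is lowest in the 2 GCSF arrays together with Dusp6, Spry4 and Egr1, while Mycn is lowest in the 2 control arrays together with Socs3, and the colour scale of the check genes is wider.

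Mycn encodes N-MYC, which can stand in for MYC in much of its work and is the form prominent in embryonic and neural progenitor cells. Its log2 levels were 10.75 and 10.80 in LIF/PD, 10.86 and 10.91 in GCSF and 10.43 and 10.52 in control arrays. All 4 stimulated arrays lay above both controls, and the GCSF arrays above the LIF/PD arrays. Mycn rose by 0.41 ± 0.04 in GCSF against control, or 1.33-fold (adjusted p = 0.0022 by limma). In LIF/PD arrays it was 0.30 ± 0.04 above control (95% interval 0.20 to 0.40), which did not pass over all features (unadjusted p = 7.63e-05, adjusted p = 0.0922 by limma) and passed when only features with 1 gene symbol were tested (adjusted p = 0.0236). Between the stimuli Mycn differed by -0.11 ± 0.04, LIF/PD minus GCSF, and did not pass (adjusted p = 0.368 by limma). The order of levels was therefore GCSF at 10.88 ± 0.04, LIF/PD at 10.78 ± 0.03 and control at 10.47 ± 0.06 (SD, n = 2 each), in which neither pair of neighbours passed and GCSF against control did.

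The promoter of Mycn is shown because Mycn is the member that rose. It covers 250 bases before and 50 after the start site as RefSeq gives it (GRCm38.p6, chr12:12941787-12942086, minus strand), printed 5′ to 3′ with matches to the E2F-type motif TTTGGCGC in capitals.
Mycn: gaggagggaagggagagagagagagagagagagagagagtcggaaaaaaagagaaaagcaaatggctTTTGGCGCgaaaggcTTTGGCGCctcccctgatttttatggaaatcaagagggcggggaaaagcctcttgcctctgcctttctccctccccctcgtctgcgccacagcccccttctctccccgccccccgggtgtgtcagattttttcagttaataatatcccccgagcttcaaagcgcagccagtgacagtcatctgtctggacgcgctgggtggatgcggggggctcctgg
The 2 matches begin at -183 and -168 from the start site. Searched on both strands, this motif stood in 0.514% of the 32851 mouse promoters of the same length in that table and, of the 8 members with an entry, in Mycn. The STAT-type motif TTCNNNGAA (8.3% of all promoters) and the ETS-type motif CCGGAA (14.9%) had no match in the windows of these 8 members. Other spellings of an E2F-type site were not searched, so the share of TTTGGCGC does not say how unusual such a site is. A match is only a run of letters, and a window without one says nothing about a factor. Myc has no entry in the table.

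The 5 genes nearest in pattern to Mycn were Trib3 (distance 0.13 log2), Map2k3os (0.13), Irf1 by its feature nearest to Mycn (0.13), Dtx3l (0.14) and Olig2 (0.14). Trib3 encodes a stress-induced pseudokinase, Map2k3os is an opposite-strand transcript of Map2k3, Irf1 is an interferon regulatory factor, Dtx3l an E3 ubiquitin ligase and Olig2 a neural basic helix-loop-helix factor. Chosen by likeness on the same arrays, they were higher in GCSF than in control arrays by 0.28 to 0.48, a description in which Olig2 (0.48 ± 0.06), Irf1 (0.43 ± 0.05) and Map2k3os (0.40 ± 0.06) passed, and none passed in LIF/PD arrays by limma. The calls of Irf1 and Olig2 ended without control replicate 2 (adjusted p = 0.0603 and 0.0543), and that of Map2k3os ended whichever array was left out (0.0648 to 0.187). With the median of each array's control features as a covariate, the calls of Irf1, Olig2 and Map2k3os ended too (adjusted p = 0.0657, 0.0565 and 0.119 by limma). That of Map2k3os also ended with only the 4 arrays compared (adjusted p = 0.0641 by limma). The other feature of Irf1 differed from control by 0.12 in the GCSF arrays.

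Within an array, the log2 value of Mycn minus that of Myc was 0.08 and 0.11 in LIF/PD, 1.06 and 1.07 in GCSF and -0.11 and -0.13 in control arrays. These values depend on both probe sets, so their sign does not say which transcript is more abundant, while their shift between groups is the difference between the changes of the genes. The shift was 1.18 for GCSF minus control, 0.21 for LIF/PD minus control and -0.97 for LIF/PD minus GCSF. No 2 groups overlapped. The pair was set side by side because its members moved in opposite directions, and 2 arrays against 2 cannot reach a p under 0.333 in an exact two-sided permutation test, so the shift is given as a description.

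**Figure D3:**
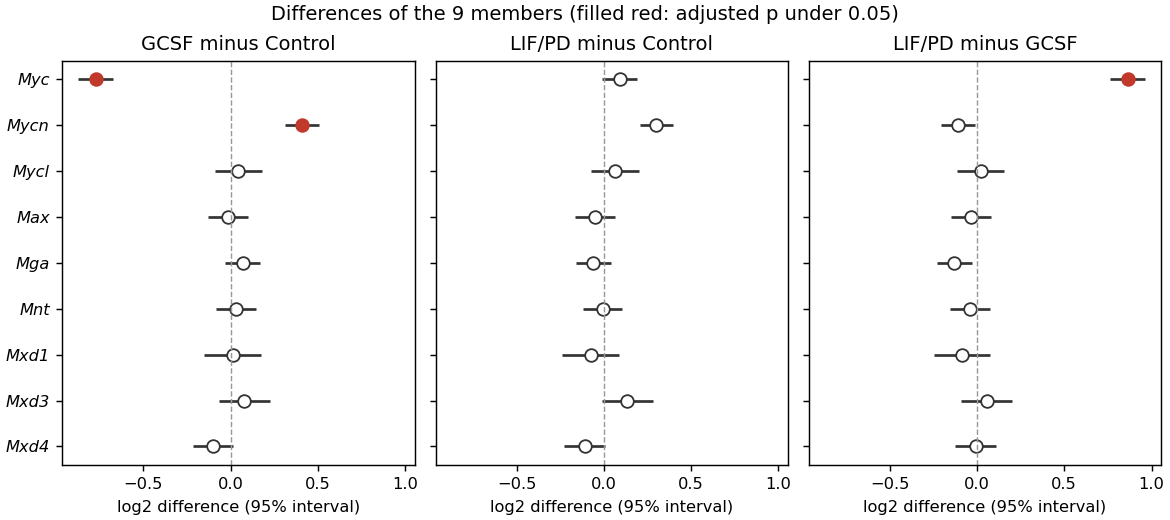
Log2 difference of each member with its 95% interval in the 3 comparisons, filled red where the adjusted p was under 0.05. Myc at -0.77 and Mycn at 0.41 are called for GCSF minus control and Myc at 0.86 for LIF/PD minus GCSF, while the differences of the other 7 members lie between -0.13 and 0.13 in all 3 panels.

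The third MYC gene, Mycl, which encodes L-MYC, a MYC protein of weaker transforming activity, had log2 levels of 8.47 and 8.43 in LIF/PD, 8.38 and 8.49 in GCSF and 8.41 and 8.37 in control arrays. The GCSF arrays overlapped with both other groups, and the LIF/PD arrays lay just above the controls. Mycl differed from control by 0.06 ± 0.06 in LIF/PD and 0.04 ± 0.06 in GCSF and did not pass (adjusted p = 0.892 and 0.830 by limma).

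Max, a shared DNA-binding partner of MYC, MXD and MNT proteins, had 10.31 and 10.21 in LIF/PD, 10.30 and 10.29 in GCSF and 10.26 and 10.37 in control arrays. The groups overlapped in all 3 comparisons. The difference was -0.05 ± 0.05 for LIF/PD and -0.02 ± 0.05 for GCSF against control (adjusted p = 0.894 and 0.931 by limma), and the 95% interval of the second ran from -0.13 to 0.10.

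Mga encodes a large protein with a T-box and a basic helix-loop-helix zipper, which with MAX forms the DNA-binding part of PRC1.6. It had 10.74 and 10.84 in LIF/PD, 10.96 and 10.88 in GCSF and 10.86 and 10.84 in control arrays, so the GCSF arrays lay above and the LIF/PD arrays just below the controls. LIF/PD minus GCSF was -0.13 ± 0.04 (95% interval -0.23 to -0.03, unadjusted p = 0.0175, adjusted p = 0.296 by limma). That did not pass, and neither did the differences from control, -0.06 ± 0.04 for LIF/PD and 0.07 ± 0.04 for GCSF.

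Among the repressors, Mnt, the most widely expressed MYC antagonist, had 8.59 and 8.64 in LIF/PD, 8.65 and 8.65 in GCSF and 8.63 and 8.61 in control arrays. Its differences from control were -0.01 ± 0.05 for LIF/PD and 0.03 ± 0.05 for GCSF. Mxd1, whose product rises as many cell types differentiate, had 8.15 and 8.34 in LIF/PD, 8.33 and 8.32 in GCSF and 8.30 and 8.34 in control arrays. LIF/PD replicate 1 stood alone at the low end, and LIF/PD minus control was -0.08 ± 0.07 with it and 0.02 ± 0.07 without it.

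Mxd3, whose product is linked to cells in S phase, had 7.70 and 7.79 in LIF/PD, 7.68 and 7.69 in GCSF and 7.60 and 7.63 in control arrays. Mxd4, the gene of another MXD repressor, had 8.71 and 8.68 in LIF/PD, 8.67 and 8.73 in GCSF and 8.78 and 8.83 in control arrays. For both genes the stimulated arrays did not overlap with the controls, Mxd3 lying above and Mxd4 below. The differences stayed small and did not pass: for Mxd3 0.13 ± 0.06 in LIF/PD and 0.08 ± 0.06 in GCSF (adjusted p = 0.778 and 0.686 by limma), and for Mxd4 -0.11 ± 0.05 and -0.10 ± 0.05 (adjusted p = 0.769 and 0.484 by limma).

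Arrays of the 2 groups failed to overlap for 6 of 9 members in GCSF against control, where 41.8% of all tested features did so, for 6 of 9 in LIF/PD against control (38.4%) and for 5 of 9 in LIF/PD against GCSF (41.5%). With 2 arrays a group such separation is common and was not read as a change. Over the 7 members other than Myc and Mycn and all 3 comparisons, 0 of 21 differences passed by limma, the differences lay between -0.13 and 0.13, and their 95% intervals between -0.25 and 0.28.

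The E-box that the network binds stood in the promoters of Max, Mnt and Mxd4, which are shown as 40-base windows to place it beside genes of the network whose levels did not pass. The sequences come from RefSeq (GRCm38.p6), 5′ to 3′ on the gene's strand with CACGTG in capitals, for Max at chr12:76962229-76962268 (minus strand), Mnt at chr11:74830784-74830823 (plus strand) and Mxd4 at chr5:34187907-34187946 (minus strand).
Max: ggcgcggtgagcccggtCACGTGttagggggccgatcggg
Mnt: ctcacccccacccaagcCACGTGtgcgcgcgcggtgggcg
Mxd4: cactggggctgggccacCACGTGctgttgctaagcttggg
The match begins at -3 in Max, -123 in Mnt and -219 in Mxd4. CACGTG is its own reverse complement, overlapped none of the other motifs searched, and stood in 7.15% of all promoters and in 3 of the 8 members with an entry.

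The lists of genes around the network are read against all tested features, of which 1.17%, 0.065% and 0.846% were called and 12.1%, 6.59% and 11.8% had an unadjusted p under 0.05 for GCSF against control, LIF/PD against control and LIF/PD against GCSF. At these shares a list of this size with no call is near the background. The lists were chosen with earlier results of these data known, so a share above the background is a description. Of 10 other basic helix-loop-helix zipper factors, which include Mxi1 of the MXD group, the MLX branch, USF and MiT/TFE factors, 0 passed in any comparison by limma (1, 0 and 0 at an unadjusted p under 0.05 in that order of comparisons). Mxi1 differed from control by -0.04 ± 0.06 in LIF/PD and 0.05 ± 0.06 in GCSF. The smallest p in this list belonged to Mitf, the melanocyte master regulator, at 0.24 ± 0.07 for GCSF minus control (adjusted p = 0.229 by limma).

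Cofactors and regulators of MYC stability were covered by 26 features of 22 genes, of which 0 passed by limma (3, 1 and 1 at an unadjusted p under 0.05 in the same order of comparisons). The nearest to the threshold was Skp2, which encodes a ubiquitin ligase subunit that acts on MYC, at -0.19 ± 0.04 for GCSF minus control (adjusted p = 0.100) and 0.17 ± 0.04 for LIF/PD minus GCSF (adjusted p = 0.143). In the SIN3 corepressor list 0 of 17 features passed by limma (1, 0 and 0 at an unadjusted p under 0.05), with Brms1 of the smallest p at -0.13 ± 0.05 for GCSF minus control. The PRC1.6 partners of MGA had 0 of 18 by limma (2, 0 and 2 at an unadjusted p under 0.05), among them Yaf2, a RING1-binding subunit, at 0.17 ± 0.05 for LIF/PD minus GCSF (adjusted p = 0.257).

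Of 19 germ cell genes that MGA, MAX and PRC1.6 hold silent, 7 passed the filter on low values and 0 were called by limma (0, 1 and 0 at an unadjusted p under 0.05). Meioc, a meiosis gene, had the smallest p at 0.18 ± 0.08 for LIF/PD minus control (adjusted p = 0.752). The median difference of the 7 tested genes was 0.04 for GCSF minus control, 0.09 for LIF/PD minus control and 0.05 for LIF/PD minus GCSF. Over all tested features the median was 0.01, 0.01 and 0.00 in the same order. The differences of the 7 genes ran from -0.03 to 0.12, from 0.02 to 0.18 and from -0.10 to 0.17.

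Among textbook targets of MYC a few genes passed at 1 h. Of 58 features of 46 MYC-activated genes of the nucleolus, translation and metabolism, 3 rose, 0 fell and 55 did not pass in GCSF against control. The called share was 5.17%, against 1.17% of all tested features. An unadjusted p under 0.05 was found for 7 of the 58 features, against 12.1% of all tested features. The median was 0.01 for the list and 0.01 for all tested features. Hk2, the first enzyme of glycolysis, rose with levels of 9.67 and 9.72 in GCSF against 9.28 and 9.15 in control arrays (0.47 ± 0.05, adjusted p = 0.00325 by limma). The transferrin receptor gene Tfrc (0.24 ± 0.03, adjusted p = 0.0142 by limma) and the ribosome biogenesis gene Rrs1 (0.39 ± 0.07, adjusted p = 0.0449 by limma) rose as well. All 3 moved opposite to Myc and in the same direction as Mycn, and the part of either was not tested. The call of Hk2 held without any 1 array, that of Tfrc ended without control replicate 1, control replicate 2 or GCSF replicate 1 (adjusted p = 0.140, 0.121 and 0.0740), and that of Rrs1 ended whichever array was left out (0.0544 to 0.289) and held in 5 of the 19 alternative settings. In LIF/PD against control 0 passed by limma, and 4 of 58 had an unadjusted p under 0.05, against 6.59% of all tested features. There Hk2 lay at 0.29 ± 0.05 (adjusted p = 0.230 by limma) and Rrs1 at 0.29 ± 0.07 (adjusted p = 0.486 by limma). Between the stimuli 0 passed and 5 of 58 had an unadjusted p under 0.05, against 11.8% of all tested features. Tfrc lay at -0.19 ± 0.03 (adjusted p = 0.0516 by limma) and passed under 6 of the alternatives.

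Among 14 features of 13 MYC-repressed genes, 1 rose and 1 fell in GCSF against control, both of the GADD45 stress response family. That is 14.3% of the features, against 1.17% of all tested, and 5 of 14 had an unadjusted p under 0.05. Gadd45b had 9.03 and 9.14 in GCSF against 8.53 and 8.63 in control arrays and rose by 0.50 ± 0.06 (adjusted p = 0.00437 by limma), a call lost without control replicate 1 (0.0565). Gadd45a had 8.85 and 8.83 in GCSF against 9.16 and 9.17 in control arrays and fell by 0.32 ± 0.06 (adjusted p = 0.0378 by limma), a call lost without either control or either GCSF replicate (0.116 to 0.228). Between the stimuli Gadd45a was higher in LIF/PD (0.48 ± 0.06, adjusted p = 0.0071, and 0.0707 without LIF/PD replicate 1) and Gadd45b lower (-0.36 ± 0.06, adjusted p = 0.0354, and 0.0615 to 0.217 with any 1 array left out). The called share there was 14.3%, against 0.846% of all tested, and 5 of 14 had an unadjusted p under 0.05. In LIF/PD against control 0 of 14 passed by limma and 2 had an unadjusted p under 0.05. Gata6, an endoderm gene that MYC holds down in stem cells, lay at -0.08 ± 0.07 in LIF/PD and 0.02 ± 0.07 in GCSF against control and did not pass.

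**Figure D4:**
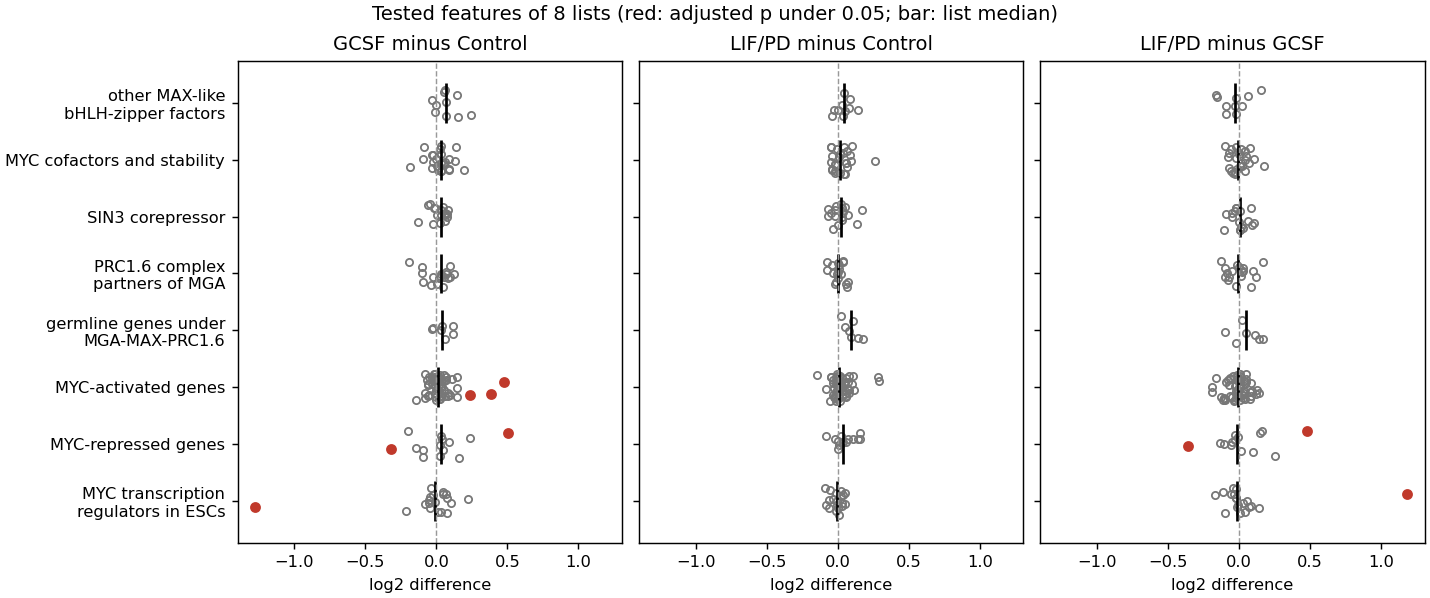
Log2 differences of all tested features in 8 lists around the network in the 3 comparisons, with called features in red and the list median as a bar. The red points are Hk2, Rrs1 and Tfrc among MYC-activated genes, Gadd45a and Gadd45b among MYC-repressed genes, and 1 feature of Rbpj among regulators of Myc transcription.

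Regulators that act on transcription of Myc were covered by 19 features of 18 genes. The 1 call was Rbpj, the DNA-binding factor of Notch signalling, by a feature that fell by 1.28 ± 0.06 in GCSF against control (adjusted p = 2.07e-05 by limma) and was 1.18 ± 0.06 higher in LIF/PD than in GCSF arrays. Its second feature differed by -0.05 ± 0.03 and 0.05 ± 0.03 in these comparisons, so the features of this gene disagree. The called share was 5.26% in both comparisons, against 1.17% and 0.846% of all tested features. Of the 19 features, 4 had an unadjusted p under 0.05 in GCSF against control and 4 in LIF/PD against GCSF. In LIF/PD against control 0 had such a p and 0 passed by limma. The shares of all tested features with such a p were 12.1%, 11.8% and 6.59% in that order.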

How the data were processed

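The deposited table holds values from 2.29 to 14.50 for 34760 features on 6 arrays, read as log2 intensity from their range. Per the labels, TRIzol was used to isolate total RNA, and biotin labelling was done by a core facility. The background correction, summarization, normalization and log base that the authors used are not given in the sources used here. Values were used as deposited.

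Genes were named from the platform annotation through features with 1 symbol (21640; 1321 with several symbols were not named). The 6573 features below the first annotated identifier were taken as a block of control features and left out. Of the other 28187, the 16912 whose mean reached the 40th percentile (6.70) entered the test. A model of group means over the 6 arrays was fitted with limma 3.58.1 in R 4.3.3, with an intensity trend in the variances (3 residual degrees of freedom). The script was tested on simulated data. The number of arrays limits the precision.

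Members, gene lists and tests were chosen with earlier results of these data known. Named were all members, called list genes or otherwise those of smallest p, and the 5 genes of nearest pattern to Myc and Mycn. Alternatives covered the filter, normalization, variance model, array weights, control block, features per gene, the replicate block, the arrays fitted and each array left out.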

Additional observations from a re-analysis of the deposited data

How the results depend on the processing

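Each member difference was recomputed under 19 alternatives (18 for Mxd3, which the stricter filter removed). With the replicate block and under the 18 others, the count of members called stayed at 2 for GCSF minus control and 1 for LIF/PD minus GCSF. For LIF/PD minus control it was 0, except that Mycn was called (count 1) when only features with 1 symbol were tested. Over the alternatives the difference of Myc ran from -0.82 to -0.72 and that of Mycn from 0.37 to 0.45 for GCSF minus control, and that of Myc from 0.84 to 0.88 for LIF/PD minus GCSF. The adjusted p of Mycn for LIF/PD minus control ran from 0.0236 to 0.506. Deviations of same-numbered arrays from their group means correlated at 0.10, 0.01 and 0.08 between groups, so the values showed little shared replicate effect. Whether same-numbered arrays were prepared together cannot be read from these correlations.

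Signs changed in 16 of 510 values of the members, none of them called. With 1 array left out, GCSF minus control ran from -0.0125 to 0.10 for Mycl, from -0.069 to 0.035 for Max and from -0.0092 to 0.031 for Mxd1. LIF/PD minus control ran from -0.11 to 0 for Max, from -0.031 to 0.015 for Mnt and from -0.17 to 0.0198 for Mxd1, and besides the members from -0.028 to 0.12 for Spry4 and from -0.11 to 0.0102 for Epha2. LIF/PD minus GCSF ran from -0.036 to 0.077 for Mycl, from -0.089 to 0.017 for Max, from -0.18 to 0.0088 for Mxd1 and from -0.038 to 0.022 for Mxd4. Mxd1 turned to -0.0102 with quantile normalization and to -0.053 with the control block median as covariate for GCSF minus control, and to 0.016 with that covariate for LIF/PD minus GCSF. For LIF/PD minus GCSF the covariate also gave -0.079 for Mycl and, no member, 0.0155 for Rrs1. The cause was not tested.

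Calls in the lists were fewer under several alternatives. MYC-activated genes for GCSF minus control dropped to 1 without an intensity trend, with the covariate, and at the lowest with an array left out (1 to 2). The call of Rrs1 ended with the replicate block (adjusted p = 0.0651), with only the 4 arrays compared (0.104), without a filter (0.0627), with quantile normalization (0.0546), median centring (0.0525) or array weights (0.0525), and without an intensity trend (0.0911) or with the covariate (0.273). MYC-activated genes called for LIF/PD minus GCSF were 1 (Tfrc) with the stricter filter, quantile normalization, robust variances, features averaged or reduced to the highest, or features with 1 symbol only. MYC-repressed genes for GCSF minus control were 1 without a filter, with median centring, without an intensity trend and with the covariate, and 0 to 2 with an array left out. For LIF/PD minus GCSF they were 1 with only the 4 arrays compared or without an intensity trend, 0 with the covariate, and 0 to 1 with an array left out. The call of Rbpj among regulators of Myc dropped to 0 in both comparisons with the highest feature per gene, which removes that feature. The cause of the other drops was not tested. Precision is limited by 2 arrays a group, and levels near the filter by signal over background, which cannot be read from this table.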
